A study of Mus musculus with 12 samples.

Results

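These results compare 5α-dihydrotestosterone (DHT) with testosterone in mouse kidney cells that express wild-type human SHBG. They rest on 6 of the series' 12 mouse whole-genome bead arrays from Illumina, the 3 titled for DHT and the 3 titled for testosterone in the wild-type line. The cells are PKSV-PCT, an established line of the mouse proximal convoluted tubule, transfected with the human SHBG cDNA in the vector pRC/CMV. The line was picked after limiting dilution cloning by the SHBG in its medium, and the labels do not say whether it is 1 clone. Each group received 100 nM of its androgen for 24 h, and the protocol also names 3 days in medium without steroid, in wording that leaves the order unclear. The culture medium, shared by both groups, held low serum, insulin, dexamethasone, selenium, transferrin, triiodothyronine, EGF and added glucose. No untreated group is among the samples, so a difference can come from either androgen. The other 6 arrays are of a line with the SHBG mutant S42L, which has no detectable steroid binding, under the same 2 androgens, and they are used here to estimate the spread and as a second comparison of the same kind.

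The 6 DHT arrays of the series share 1 chip, and the 6 testosterone arrays share the second chip. The androgen and the chip therefore cannot be told apart in any difference given for 1 line. An additive chip effect cancels only in the difference between the lines. No label says that the 3 replicates came from separate cultures, so a p-value here measures only array-to-array spread, and that spread may be technical. In a bulk sample, fewer cells of a type and less RNA per cell cannot be told apart.

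Testosterone and DHT are both androgens, which act through the steroid receptor family, whose members move to the nucleus on binding their ligand and control genes through hormone response elements. DHT is made from testosterone by the 5α-reductases, which reduce the double bond of the steroid's A ring, and unlike testosterone it cannot be turned into an estrogen by aromatase. SHBG is the plasma carrier of both steroids, and the proximal tubule of the mouse kidney is a classical androgen target, known for androgen-responsive genes such as Kap, Odc1 and Gusb. The comparison asks how far the expression profile differs between the natural androgen and its reduced form in cells that make their own steroid-binding protein.

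The mean signal of the 6 wild-type arrays ran from 569.3 to 683.1 and 17314 to 18056 probes were detected on each, at a detection p under 0.05. Of 45281 probes, 19480 were detected on at least 3 of the 12 arrays and tested, standing for 10340 named genes. Correlations between arrays of the same androgen (0.983 to 0.993 over tested probes, log2 signal) and between arrays of different androgens (0.982 to 0.992) covered the same range. Of 15 proximal tubule markers with a named probe, 11 were detected on all 6 wild-type arrays, among them Lrp2 and Aqp1, and 3 on none, Cubn, Slc34a1 and Slc5a2. The summed linear level of these markers was 17902 to 18743 on the DHT arrays and 18959 to 20758 on the testosterone arrays. Of other markers with a named probe, 1 of 6 distal nephron, 1 of 2 podocyte, 1 of 5 fibroblast, 1 of 3 immune and 0 of 4 endothelial ones were detected on all 6 wild-type arrays. They were Slc12a3, Podxl, Dcn and Csf1r. The distal marker Slc12a3 had log2 means of 10.26 under DHT and 10.18 under testosterone, beside 9.51 and 9.60 for Lrp2. The summed level of the fibroblast list was 187 to 209 under DHT and 159 to 199 under testosterone. These ranges overlapped, as did those of the distal nephron, podocyte, endothelial and immune lists. Of the summed fibroblast markers, Dcn and Col1a1 had higher means under DHT. Pdgfra, Pdgfrb and Col3a1 had lower means, but were detected on only 0, 0 and 1 of the wild-type arrays. A second, longer list of 15 fibroblast genes had 5 tested members, 3 above 0 and 2 below. Of these 5, Dcn and Fbln2 (40%, beside 7.2% of all genes) were higher on every DHT array, and the median difference of the 5 was 0.34 log2. In S42L cells 4 were higher without overlap (80%, beside 12.4%), with a median of 0.42. The part of such cells in the results was not tested. The probe for mouse Shbg was detected on 0 arrays, and no value here shows whether it would bind RNA of the human gene. The genes Srd5a1, Srd5a2 and Cyp19a1 are not analysed here.

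Few transcripts were called between the androgens in wild-type cells, with 3 arrays in each group. limma called 14 of 19480 probes (0.0719%) at a Benjamini-Hochberg adjusted p under 0.05, 4 higher (0.0205%) and 10 lower (0.0513%) under DHT. Judged by each gene's brightest probe, 7 of 10340 genes were called (0.0677%). Exosc2, Dok3 and Lpcat2 rose (0.029%) and Egln3, Tpt1, Ywhae and Retreg3 fell (0.0387%), and 4 of the 7 changed by 2-fold or more. At an unadjusted p under 0.05, 515 genes were higher (4.98%) and 552 lower (5.34%), 10.3% in all. The spread came from all 12 arrays: fitted on the 6 wild-type arrays alone, limma called 0 probes, with 1803 past an unadjusted p of 0.05 (9.26% of probes) and a lowest adjusted p of 0.183.

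The call list also changed with single arrays. It held 4 probes without DHT replicate 1 or without testosterone replicate 3, 6 without DHT replicate 3 or testosterone replicate 1, 8 without DHT replicate 2 and 14 without testosterone replicate 2. Without an S42L array it held 6 to 9. Egln3 alone of the 7 genes was called in each of these 12 fits.

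Egln3 encodes prolyl hydroxylase 3 (PHD3), 1 of 3 enzymes that hydroxylate the alpha subunits of hypoxia-inducible factor (HIF) and so mark them for destruction when oxygen is present. It is itself induced by HIF. Its log2 signals were 7.99, 8.00 and 8.00 on the DHT arrays and 9.04, 8.93 and 9.07 on the testosterone arrays. Every DHT array lay about 1 log2 unit under every testosterone array, and the spread within each androgen was a small part of that gap. The change was -1.01 ± 0.10 (log2, SE, 3 against 3 arrays), a level 2.02-fold higher under testosterone (limma adjusted p = 0.00448). A second Egln3 probe, detected on 7 of 12 arrays, read -0.24 ± 0.18 (adjusted p = 0.634), and the third was detected on 0 arrays.

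In S42L cells, where limma called 29 genes (0.28%), 4 higher (0.0387%) and 25 lower (0.242%), Egln3 moved the other way. Its log2 signals there were 8.40, 8.54 and 8.33 under DHT and 7.71, 7.78 and 7.95 under testosterone, so all DHT arrays were above all testosterone arrays. The S42L change was 0.61 ± 0.10 (limma adjusted p = 0.0391), and the difference between the lines was -1.63 ± 0.14 (adjusted p = 0.00135). It was the only 1 of 10340 genes called in that test (0.00967%), while 423 genes (4.09%) passed an unadjusted p of 0.05. The level of Egln3 was thus highest in wild-type cells under testosterone, then in S42L cells under DHT, then in wild-type cells under DHT, and lowest in S42L cells under testosterone. The ranges of the last 2 groups were close, with their nearest arrays at 7.99 and 7.95.

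**Figure D1:**
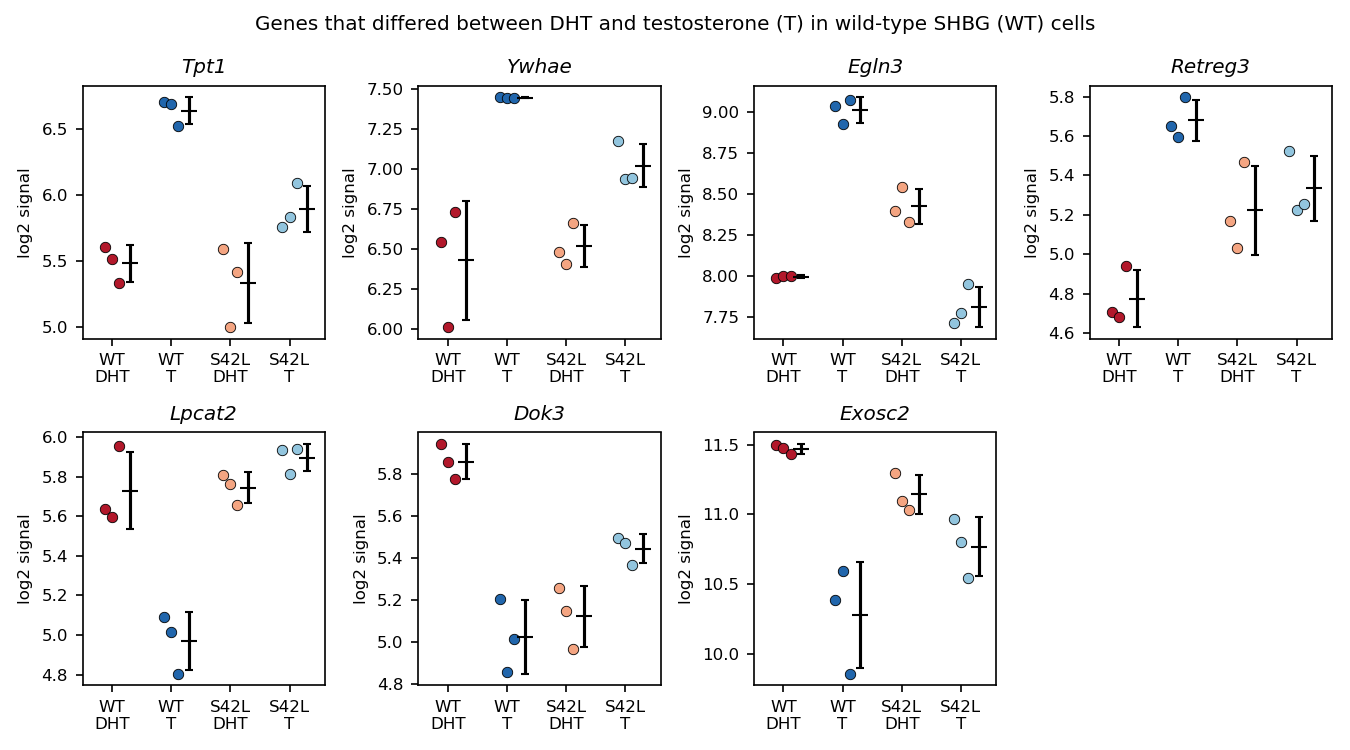
Log2 signal (y axis, background-corrected and quantile-normalized) of the 7 genes called between DHT and testosterone in wild-type SHBG cells, for 3 arrays in each of the 4 groups. Points are arrays and the bars beside them are the mean and SD. In Egln3 the wild-type testosterone arrays are highest (8.93 to 9.07) and the order of the androgens is turned in S42L cells.

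The letters upstream of the start site are shown for the 3 HIF system genes with the lowest changes, Egln3, Ankrd37 and Egln1, since HIF binds the core letters ACGTG or GCGTG. They come from RefSeq (GRCm38.p6) and run 5′ to 3′ on the gene's strand over the 250 bases before the start site, with those core letters in capitals on either strand. Egln3 lies on the minus strand at chr12:54203875-54204124 and holds 1 match, 229 bases before the start site. Ankrd37 lies on the minus strand at chr8:45999851-46000100 and holds 4 matches, at 241, 155, 152 and 6 bases, of which the second and the third overlap. Egln1 lies on the minus strand at chr8:124949255-124949504 and holds 2, at 126 and 68 bases.
Egln3: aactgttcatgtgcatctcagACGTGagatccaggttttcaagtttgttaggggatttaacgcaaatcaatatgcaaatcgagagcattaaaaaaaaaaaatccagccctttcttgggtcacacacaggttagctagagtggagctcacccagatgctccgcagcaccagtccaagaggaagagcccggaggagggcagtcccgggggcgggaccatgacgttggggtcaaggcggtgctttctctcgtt
Ankrd37: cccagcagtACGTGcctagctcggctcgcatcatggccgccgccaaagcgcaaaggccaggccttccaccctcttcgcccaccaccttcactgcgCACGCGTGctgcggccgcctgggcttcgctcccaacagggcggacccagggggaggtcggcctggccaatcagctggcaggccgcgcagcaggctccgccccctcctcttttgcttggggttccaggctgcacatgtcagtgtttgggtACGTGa
Egln1: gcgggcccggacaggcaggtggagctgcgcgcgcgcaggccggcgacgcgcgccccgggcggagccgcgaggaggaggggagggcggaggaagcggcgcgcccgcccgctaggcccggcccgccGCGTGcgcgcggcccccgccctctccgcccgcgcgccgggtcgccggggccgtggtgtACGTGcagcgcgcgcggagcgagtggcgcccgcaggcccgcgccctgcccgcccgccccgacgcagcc
Such a match is common: 38.6% of all 32851 promoter windows in the table and 55.6% of the 10813 windows of tested genes hold at least 1. Of the 31 tested HIF system genes, 25 were in the table, and 22 of their 31 windows (71%) hold a match. These are letters in a window and not sites of binding.

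Among the oxygen sensors, the enzymes and the ligase subunit that set HIF stability or activity, Egln3 fell and the other 4 measured did not pass the test. Egln1, which encodes the main prolyl hydroxylase PHD2, read 6.85, 6.64 and 6.65 under DHT and 7.37, 7.35 and 7.25 under testosterone, a difference of -0.61 ± 0.17 (limma adjusted p = 0.181). The groups did not overlap. Vhl, the ubiquitin ligase subunit that binds hydroxylated HIF, was also lower on every DHT array (-0.39 ± 0.15, adjusted p = 0.324), as it was in S42L cells (-0.61 ± 0.15). Egln2 (PHD1) was higher on every DHT array at 0.34 ± 0.17 (adjusted p = 0.467), and Hif1an, the asparaginyl hydroxylase, stood at 0.06 ± 0.10 with overlapping groups.

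Of the 4 tested HIF subunits 0 were called and all 4 were below 0. Hif1a, the main oxygen-regulated subunit, was at -0.09 ± 0.18 (95% confidence interval -0.48 to 0.31) and its partner Arnt at -0.04 ± 0.13. Hif3a, whose product can counter the other alpha subunits, was lower on every DHT array (-0.50 ± 0.16, adjusted p = 0.232), though testosterone replicate 2 (7.41) lay close to the DHT arrays (7.19 to 7.39). In S42L cells it stood at 0.14 ± 0.16.

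Among the HIF targets, Ankrd37, an ankyrin repeat protein gene, had the largest difference. Its log2 signals were 7.39, 7.80 and 7.83 under DHT and 8.27, 8.76 and 8.88 under testosterone. The groups did not overlap, and at -0.97 ± 0.16 the adjusted p was 0.0539, just outside the threshold. The value in S42L cells was -0.56 ± 0.16 (adjusted p = 0.15), of the same sign. P4ha1, a subunit of the collagen prolyl hydroxylase, was at -0.41 ± 0.15, Rora, a nuclear receptor of the clock, at -0.40 ± 0.13, Mxi1, a MYC antagonist, at -0.50 ± 0.13 and Ddit4, an inhibitor of mTOR complex 1, at -0.31 ± 0.12, each lower on every DHT array and none called. The mitophagy receptor gene Bnip3l (-0.23 ± 0.12), the clock repressor gene Bhlhe40 (-0.23 ± 0.10) and Fam162a (-0.20 ± 0.11) were also lower on every DHT array. Angptl4, an inhibitor of lipoprotein lipase, was higher on each at 0.26 ± 0.15, but it was detected on 1 DHT array and 0 testosterone arrays. Vegfa, the angiogenic growth factor, had overlapping groups at -0.12 ± 0.10 (95% confidence interval -0.35 to 0.10). Adm read -0.51 ± 0.27, but its probe was detected on 0 DHT arrays and on 1 testosterone array, so that value rests mostly on background.

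Over the 31 tested members of the HIF system and its targets, 1 was called lower and 0 higher, and 25 were below 0. Every DHT array was below every testosterone array for 12 members, against 7.41% of all tested genes, and above for 2 members, against 7.2%. The median difference was -0.20 log2, beside 0.00 over all 10340 tested genes. In S42L cells the list's median was 0.04, with 5 members higher and 5 lower without overlap, against 12.4% and 12.2% of all genes there. The median of the difference between the lines was -0.14, and 6 members were lower and 1 higher at an unadjusted p under 0.05 (1.81% and 2.28% of all genes). The members' median deviation from their 12-array means was -0.12, -0.10 and -0.15 on the wild-type DHT arrays and 0.10, -0.03 and 0.10 on the wild-type testosterone arrays. Testosterone replicate 2 lay nearer the DHT arrays than its group did. Without it the list median was -0.26 and 18 members lay lower without overlap, while 18.9% of all genes then did. The choice of these genes had earlier results on this pathway in view, so their shift is a description.

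**Figure D2:**
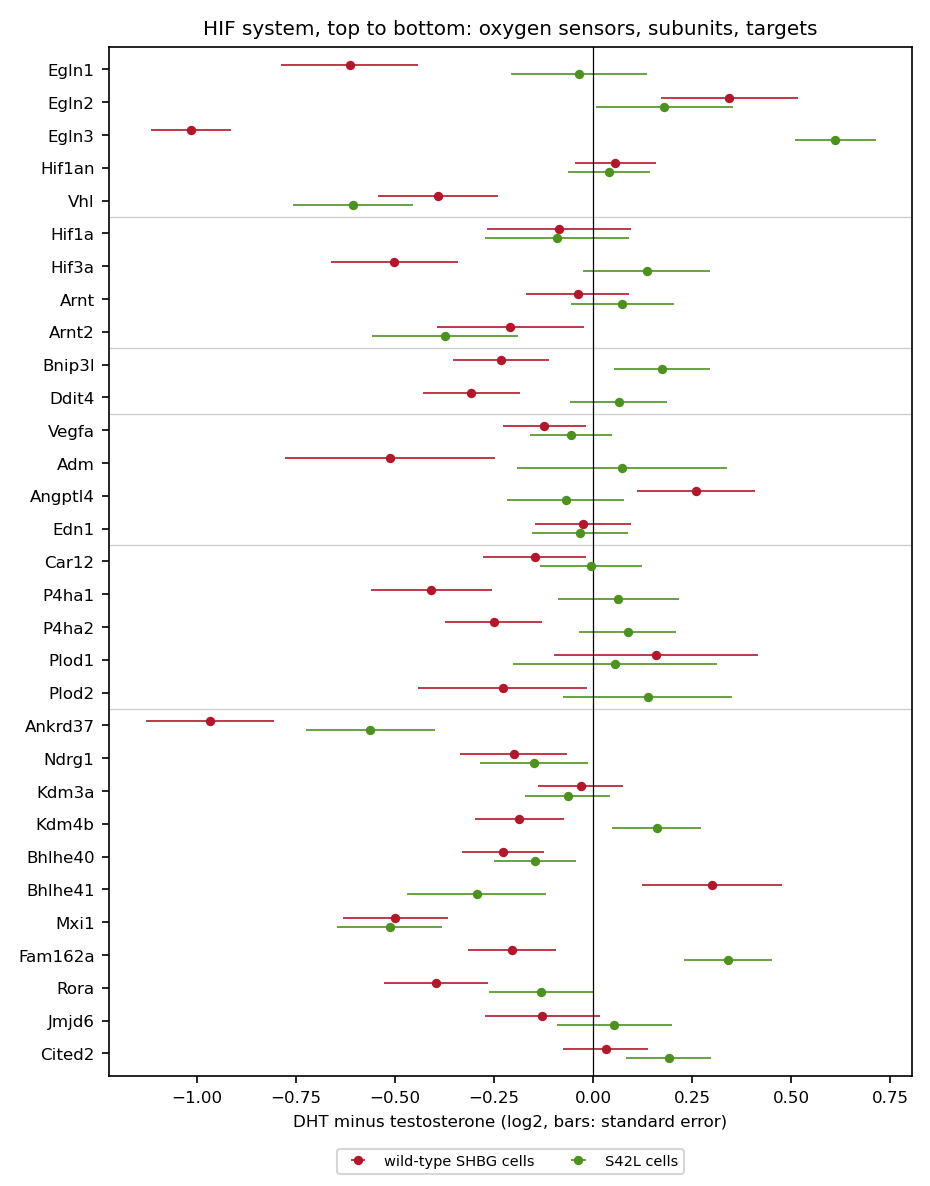
DHT minus testosterone (x axis, log2 ± SE of the fit) for the 31 tested genes of the HIF system, in wild-type SHBG cells and in S42L cells, 3 arrays for each androgen and line. From top to bottom the blocks are oxygen sensors, HIF subunits and 4 groups of targets. Of the wild-type points 25 lie left of 0, and the 2 lines lie farthest apart at Egln3.

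Glycolysis turns glucose into pyruvate, and many of its enzymes are HIF targets. In pathway order, the glucose transporter Slc2a1 had overlapping groups in wild-type cells at 0.03 ± 0.11 (95% confidence interval -0.22 to 0.27) and hexokinase Hk1 at -0.02 ± 0.17. At the phosphofructokinase step Pfkp was at -0.37 ± 0.12 and Pfkfb2 at -0.55 ± 0.18, both lower without overlap. Pfkfb2 is a bifunctional enzyme that regulates phosphofructokinase through an allosteric activator. Pfkm, at 0.07 ± 0.09, was the 1 member higher on every DHT array. Of the 6 tested genes of this step 3 were above 0, the highest at 0.44 with overlapping groups. Aldoc, an aldolase, read 10.11, 10.10 and 10.19 under DHT and 10.52, 10.54 and 10.40 under testosterone. Its groups did not overlap (-0.35 ± 0.10, limma adjusted p = 0.181), and in S42L cells it rose by 0.54 ± 0.10 (adjusted p = 0.0457). The difference between the lines was not called (-0.89, adjusted p = 0.186). Further down, Tpi1 was at -0.27 ± 0.10, Gapdh at 0.01 ± 0.10 (95% confidence interval -0.20 to 0.22) and Pgk1 at -0.15 ± 0.11. Eno2, the neuronal-type enolase, read 9.44, 9.61 and 9.69 under DHT and 10.03, 10.01 and 10.35 under testosterone. All its DHT arrays were lower, at -0.55 ± 0.13 (limma adjusted p = 0.135). The other tested enolase gene, Eno3, was at 0.20 with overlapping groups. Ldha, which turns pyruvate into lactate, was at 0.02 ± 0.12.

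Of 32 tested glycolysis genes 0 were called, with 7 lower (21.9%, beside 5.34% of all tested genes) and 0 higher at an unadjusted p under 0.05. Without overlap 6 were lower (18.8%, beside 7.41% of all tested genes) and 1 higher (3.12%, beside 7.2%), and the median was -0.03. In S42L cells 1 was lower (3.12%, beside 12.2%) and 6 were higher (18.8%, beside 12.4%), and the median was 0.07. The 6 members lower without overlap were Pfkp, Pfkfb2, Aldoc, Tpi1, Eno2 and the phosphoglucomutase gene Pgm1 (-0.28 ± 0.11), while Gapdh, the mutase gene Pgam1 (-0.09 ± 0.14) and Ldha had overlapping groups. Of the citric acid cycle's 18 tested genes 0 were called. Without overlap 5 were lower (27.8%, beside 7.41% of all genes) and 1 higher (5.56%, beside 7.2%). The 5 were Suclg1 (-0.33 ± 0.11), Mdh1 (-0.34 ± 0.11), Dld (-0.33 ± 0.12), Idh2 (-0.25 ± 0.11) and Idh3g (-0.15 ± 0.10). The higher gene was Fh1 (0.12 ± 0.09). Of 64 respiratory chain subunits 0 were called, 8 were higher (12.5%, beside 7.2% of all genes) and 5 lower (7.81%, beside 7.41%) without overlap, and the medians were 0.05 in wild-type and 0.08 in S42L cells.

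**Figure D3:**
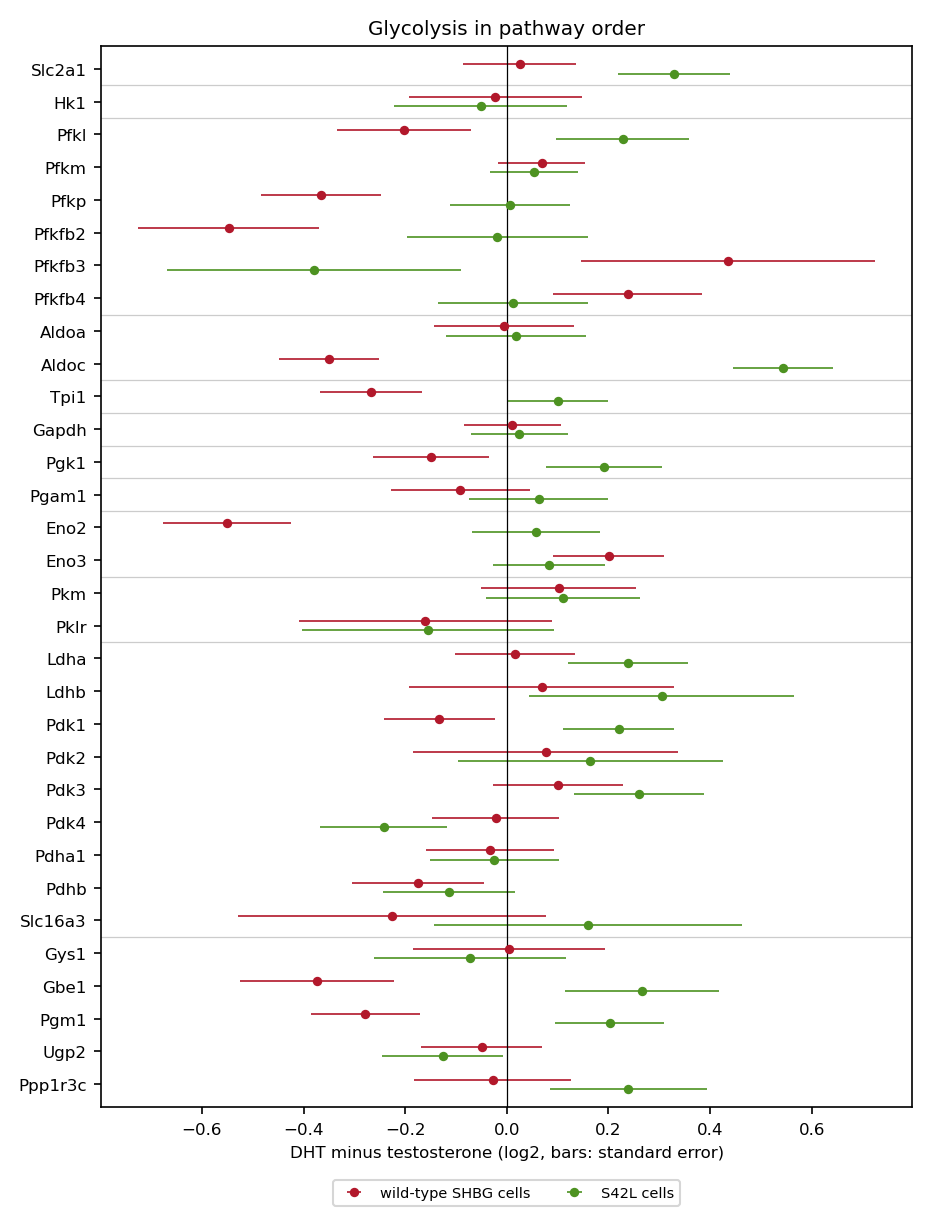
DHT minus testosterone (x axis, log2 ± SE of the fit) for 32 tested genes of glycolysis and glycogen use, in pathway order from glucose entry at the top, in wild-type SHBG cells and S42L cells, 3 arrays for each androgen and line. Gapdh, Ldha and Slc2a1 lie near 0 in wild-type cells and Eno2 (-0.55) and Pfkfb2 (-0.55) farthest to the left.

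The other genes that fell under DHT in wild-type cells act in growth control and at the endoplasmic reticulum. Tpt1, which encodes the translationally controlled tumour protein, read 5.61, 5.51 and 5.33 under DHT and 6.70, 6.69 and 6.52 under testosterone. The DHT arrays were all lower, by 1.15 ± 0.15 in log2 with an adjusted p of 0.0219. The value in S42L cells was -0.56 ± 0.15 and did not pass the test there (adjusted p = 0.13). Only 1 probe is named for Tpt1, a gene with processed copies elsewhere in the genome, and whether the probe reads them was not tested. The probe was detected on all 12 arrays but was dim. Its mean was 5.84 log2, beside 4.69 for the Egln3 probe detected on 0 arrays. Whether it reads the main Tpt1 transcript was not tested. Ywhae, the 14-3-3 epsilon adapter, read 6.54, 6.01 and 6.73 under DHT and 7.45, 7.44 and 7.44 under testosterone. The testosterone arrays were nearly equal and the DHT arrays scattered, and the change was -1.02 ± 0.16 (adjusted p = 0.0483), beside -0.50 ± 0.16 in S42L cells.

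Retreg3 encodes a reticulon-type receptor for autophagy of the endoplasmic reticulum. It read 4.70, 4.68 and 4.94 under DHT, not above background on any of these arrays, and 5.65, 5.59 and 5.80 under testosterone. Its level was at least 1.48-fold lower under DHT (adjusted p = 0.0466), where the bound sets the DHT arrays no lower than the dimmest detected probe. The S42L value was -0.11 ± 0.14 with overlapping groups.

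Of the genes that rose under DHT, Exosc2 encodes a cap subunit of the RNA exosome, which trims and degrades RNA. It read 11.50, 11.48 and 11.43 under DHT and 10.38, 10.59 and 9.86 under testosterone. Testosterone replicate 3 was the lowest of the 6, and without it the change was 0.98 with an adjusted p of 0.0637, beside 1.19 ± 0.17 (limma adjusted p = 0.0363) with all arrays. A second Exosc2 probe, detected on all 12 arrays, stood at -0.03 ± 0.12, so the 2 probes disagree.

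Dok3, a docking adapter of immune receptor signalling, read 5.94, 5.86 and 5.78 under DHT, and 5.21, 4.86 and 5.01 under testosterone, where it was detected on 1 of 3 arrays. It rose by 0.83 ± 0.12 (adjusted p = 0.0328), while the S42L value was -0.32 ± 0.12. Lpcat2, an acyltransferase that makes phosphatidylcholine and platelet-activating factor, read 5.64, 5.60 and 5.96 under DHT and was not above background under testosterone (5.09, 5.02 and 4.81). It was at least 1.53-fold higher under DHT (adjusted p = 0.0483). A second Lpcat2 probe, detected on 8 of 12 arrays, was at -0.02 ± 0.21. The S42L value on the first probe was -0.15 ± 0.12.

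2 further named genes were called on a probe that was not their brightest. Cldn2 encodes claudin-2, the cation- and water-permeable claudin of proximal tubule junctions, and its called probe read 7.44, 7.49 and 7.72 under DHT and 8.36, 8.61 and 8.21 under testosterone. It fell by 0.84 ± 0.13 (limma adjusted p = 0.0483), and the brightest probe gave -0.71 ± 0.14 (adjusted p = 0.114). In S42L cells the called probe fell by 0.79 ± 0.13 (adjusted p = 0.0391), and the difference between the lines was -0.05 ± 0.19. Cldn2 was lower on every DHT array in both lines. Etnk1, an ethanolamine kinase, was at least 1.12-fold lower on a probe not above background on the DHT arrays (adjusted p = 0.0483), while its brightest probe was at -0.03 ± 0.12. The other 5 of the 14 called probes have no gene name here. Of the 14, 11 had the same sign in S42L cells.

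The upstream letters of Cldn2 are shown because they hold the steroid receptor core AGAACA 3 times. The window, from RefSeq (GRCm38.p6), is on the plus strand at chrX:139800558-139800807 and runs over the 250 bases before the start site, with AGAACA on either strand in capitals, at 184, 179 and 143 bases. The first 2 matches share a letter.
Cldn2: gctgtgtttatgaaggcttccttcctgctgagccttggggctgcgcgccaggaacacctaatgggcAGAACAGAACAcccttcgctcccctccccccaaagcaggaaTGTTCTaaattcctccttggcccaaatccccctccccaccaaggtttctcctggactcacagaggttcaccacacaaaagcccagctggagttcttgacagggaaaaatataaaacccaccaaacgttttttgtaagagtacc
At least 1 such match is in 16.1% of all 32851 windows and in 10.9% of the windows of tested genes. This window was chosen for its matches, which are letters and not sites of binding.

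Just outside the threshold, the 10 genes next in order of p had adjusted p-values of 0.0529 to 0.0822. Egr1, an immediate early zinc finger factor, read 10.47, 10.19 and 10.40 under DHT and 10.92, 10.97 and 11.04 under testosterone, a difference of -0.62 ± 0.10 without overlap (limma adjusted p = 0.0529). In S42L cells Egr1 fell by 1.18 ± 0.10 (adjusted p = 0.000984). The activin subunit gene Inhba was at 0.99 ± 0.17, Skp2, whose product targets cell cycle inhibitors for degradation, at 1.06 ± 0.18, the calcium channel gene Cacna1d at -0.97 ± 0.16 and Apoc1, an apolipoprotein, at -1.11 ± 0.20. In S42L cells Inhba was at 0.33, Skp2 at 0.56, Cacna1d at -0.02 and Apoc1 at -0.27. None of them was called in the test of the difference between the lines.

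The 2 lines share no array but share both chips. Over 10340 genes their DHT minus testosterone differences had a Pearson correlation of 0.45 (Spearman 0.42), a description across genes that are not independent. Of 766 genes lower under DHT without overlap in wild-type cells (7.41%), 285 (37.2%) were also lower without overlap in S42L cells and 19 (2.48%) higher. The 285 were 22.6% of the genes lower in S42L cells. Of 744 genes higher in wild-type cells (7.2%), 232 (31.2%) were higher in S42L cells, where they made up 18.1% of those higher, and 22 (2.96%) were lower. Whether this common part follows the androgen or the chip cannot be told apart.

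**Figure D4:**
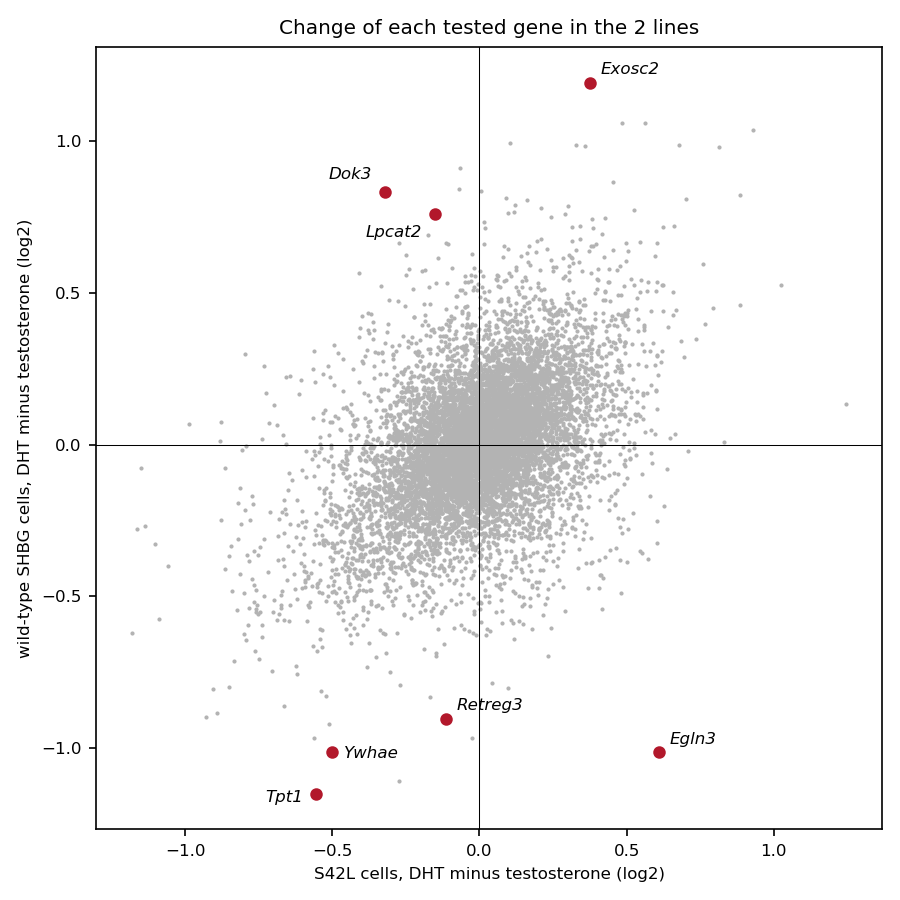
DHT minus testosterone (log2) in wild-type SHBG cells (y axis) against the same difference in S42L cells (x axis) for each of 10340 tested genes, with the 7 genes called in wild-type cells in red. The cloud is tilted (Pearson 0.45), and Egln3, at -1.01 and 0.61, lies in the lower right quadrant.

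Known androgen-response genes of kidney and other tissues showed no call between the androgens. Of 53 tested, 0 passed the limma test, with 2 higher (3.77%) and 9 lower (17%) at an unadjusted p under 0.05, beside 4.98% and 5.34% of all genes. Without overlap 5 were higher (9.43%, beside 7.2%) and 9 lower (17%, beside 7.41%). The median was -0.03. Odc1, the rate-limiting enzyme of polyamine synthesis, was at 0.09 ± 0.13 (95% confidence interval -0.19 to 0.36) and Gusb, beta-glucuronidase, at 0.08 ± 0.12 (-0.17 to 0.33), both with overlapping groups. These intervals leave room for a difference of about 0.3 log2 and do not show that the androgens act alike. Fkbp5, a steroid receptor co-chaperone, was at -0.03 ± 0.11 (-0.27 to 0.22) with overlapping groups. Tsc22d3, the glucocorticoid-induced leucine zipper, was lower on every DHT array at -0.16 ± 0.12 (-0.43 to 0.11). Timd2, a ferritin receptor, was higher on every DHT array at 0.28 ± 0.20 (-0.16 to 0.71), with -0.40 ± 0.20 in S42L cells. Kap was detected on 0 arrays.

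The members with the largest differences were Pmepa1 and Selenop. Pmepa1, a membrane adapter that restrains TGF-beta signalling, had a mean of 9.04 ± 0.03 (SD, n = 3) on the DHT arrays and 8.46 ± 0.19 (SD, n = 3) on the testosterone arrays, at 0.58 ± 0.11 (adjusted p = 0.0858), and stood at 0.47 ± 0.11 in S42L cells (adjusted p = 0.09). The DHT arrays were all higher in both lines. Selenop, the selenium transport protein, was at -0.57 ± 0.16 (adjusted p = 0.186) and fell by 1.09 ± 0.16 in S42L cells (adjusted p = 0.0272). Tmprss2, a membrane protease induced by androgen in prostate, was at -0.43 ± 0.12 in wild-type and -0.39 ± 0.12 in S42L cells.

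Among enzymes that convert or conjugate steroids 0 of 26 were called. Of these, 4 were lower (15.4%, beside 7.41% of all genes) and 1 higher (3.85%, beside 7.2%) without overlap. Srd5a3, the 1 member of the 5α-reductase family that was tested, was at -0.07 ± 0.11, and Hsd17b11, a dehydrogenase that acts on androstane steroids, at 0.17 ± 0.13 with overlapping groups. The conjugating enzymes Sult1d1, a sulfotransferase, and Ugt1a6a, a glucuronosyltransferase, were lower on every DHT array at -0.54 ± 0.11 (adjusted p = 0.117) and -0.39 ± 0.12 (adjusted p = 0.225). Sult1d1 fell in S42L cells by 0.76 ± 0.11 (adjusted p = 0.0272). Of 37 chaperones and coregulators of steroid receptors 0 were called, and 5 were lower (13.5%, beside 7.41%) and 2 higher (5.41%, beside 7.2%) without overlap. The chaperones Hsp90aa1 (-0.39 ± 0.12) and Ptges3 (-0.34 ± 0.10) and the coactivator Ncoa4 (-0.41 ± 0.16) were among the lower. Pias4 (0.40 ± 0.17) and Daxx (0.26 ± 0.12) were higher on every DHT array.

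The culture medium of both groups held dexamethasone, a steroid, but the protocol also names 3 days in medium without steroid. Whether dexamethasone was present along with the androgen is therefore not clear. Of 27 tested glucocorticoid-induced genes 0 were called. Without overlap 8 were lower (29.6%, beside 7.41% of all genes) and 2 higher (7.41%, beside 7.2%), and the median was -0.09, beside 0.03 in S42L cells. Dusp1, a MAP kinase phosphatase, read 8.56, 8.57 and 8.55 under DHT and 9.15, 8.81 and 9.10 under testosterone. The groups were apart in both lines, at -0.46 ± 0.13 here (adjusted p = 0.178) and -0.55 ± 0.13 in S42L cells (adjusted p = 0.0841). Arrdc2, an arrestin-like gene, was at -0.54 ± 0.17 and Cebpd, a bZIP factor, at -0.29 ± 0.10, with S42L values of 0.00 and 0.04, whereas Cebpb was higher on every DHT array at 0.30 ± 0.13.

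Heat shock chaperones fold and refold cytosolic proteins and hold steroid receptors ready for ligand. Of 31 tested 0 were called, 8 were lower (25.8%, beside 7.41% of all genes) and 0 higher without overlap, and the median was -0.11. In S42L cells 12 were lower (38.7%, beside 12.2%) and 0 higher, and the median was -0.15. The chaperonin subunit Cct7 was at -0.61 ± 0.18 (adjusted p = 0.198), Hsp90aa1 at -0.39 ± 0.12 and Dnajb6 at -0.30 ± 0.10. In S42L cells these 3 were at -0.54, -0.40 and -0.26. The abundant Hspa8 was at 0.05 ± 0.10 in wild-type cells. Along the endoplasmic reticulum's stress response Hspa5, the lumenal HSP70, was at -0.25 ± 0.16 with overlapping groups in wild-type cells, and fell by 0.88 ± 0.16 in S42L cells (adjusted p = 0.0438). Ddit3, the CHOP factor, was higher on every DHT array at 0.18 ± 0.12, with Atf4 at -0.16 ± 0.11 and Trib3 at 0.09 ± 0.10. Of 40 genes of that response and 53 of the ATF4 amino acid response 0 were called.

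Of 30 tested genes that mark the proximal tubule 19 were below 0 and 11 above 0 in each line. The highest wild-type value was 0.64, in the group of transporters and channels. The tubule genes named below are all among those below 0. Of these 30, 0 were called on their brightest probe, 6 were lower (20%, beside 7.41% of all genes) and 2 higher (6.67%, beside 7.2%) without overlap, and the medians were -0.10 in wild-type and S42L cells. Aqp1, the water channel, read 9.31, 9.47 and 9.39 under DHT and 9.76, 9.65 and 10.24 under testosterone, at -0.49 ± 0.15 (adjusted p = 0.211), beside -0.80 ± 0.15 in S42L cells (adjusted p = 0.0518). Hnf4a, a nuclear receptor of tubule identity, was at -0.40 ± 0.12, the brush border peptidases Mep1a at -0.50 ± 0.17 and Mme at -0.34 ± 0.15, and the endocytic receptor Lrp2 (megalin) at -0.09 ± 0.11. Pax8 had the lowest value, -0.81 ± 0.29, but its groups overlapped, with testosterone arrays from 7.49 to 9.10. Among the junction genes the cadherin Cdh1 (-0.42 ± 0.13), the catenin Ctnnb1 (-0.31 ± 0.12), the scaffold Tjp1 (-0.43 ± 0.16) and Cldn1 (-0.34 ± 0.13) were also lower on every DHT array. Of 38 junction and polarity genes 6 were lower (15.8%, beside 7.41% of all genes) and 4 higher (10.5%, beside 7.2%) without overlap, and their median was -0.09. Their values ran from -0.71 to 0.55, with 25 below 0 and 13 above.

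N-glycosylation is the pathway that attaches and trims the glycans of secreted proteins, SHBG among them. Of 56 tested genes 0 were called, with 7 higher (12.5%, beside 7.2% of all genes) and 0 lower without overlap, and the median was 0.02, beside -0.02 in S42L cells. In pathway order the 7 were the mannose suppliers Pmm1 (0.21 ± 0.12) and Pmm2 (0.34 ± 0.15), the mannosyltransferases Alg2 (0.23 ± 0.13) and Alg11 (0.23 ± 0.12), the trimming mannosidase Man1b1 (0.31 ± 0.13) and the branching enzymes Mgat3 (0.63 ± 0.19) and Mgat5 (0.54 ± 0.16). Mgat3 was detected on 3 DHT arrays and 1 testosterone array. The values of the 56 genes ran from -0.41 to 0.63, with 29 above 0 and 27 below. At an unadjusted p under 0.05, 4 were higher (7.14%, beside 4.98% of all genes) and 2 lower (3.57%, beside 5.34%). Of the 18 tested genes of Golgi branching and capping, 9 were above 0 and 9 below, with 2 higher and 2 lower at that p. Of 25 ribosome biogenesis genes 5 were higher (20%, beside 7.2%) and 1 lower (4%, beside 7.41%) without overlap, with Rrp9 (0.41 ± 0.11), Nhp2 (0.36 ± 0.11) and Gnl3 (0.35 ± 0.11) higher and 0 called. Myc, which drives many of them, was lower on every DHT array, at -0.37 ± 0.10 (adjusted p = 0.179).

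Of 117 cell cycle genes 0 were called, and 9 were higher (7.69%) and 8 lower (6.84%) without overlap, shares near those of all genes (7.2% and 7.41%), with a median of -0.01. The G1 cyclins Ccnd2 (0.76 ± 0.17, adjusted p = 0.128) and Ccne1 (0.43 ± 0.14) and the condensin subunit Smc2 (1.04 ± 0.26, adjusted p = 0.158) were higher on every DHT array, and the replication clamp Pcna lower (-0.53 ± 0.17). Ccnd1 had overlapping groups at 0.07 ± 0.09 (95% confidence interval -0.13 to 0.28). Over the whole list of 47 interferon and antigen presentation genes, 4 were lower (8.51%, beside 7.41% of all genes) and 2 higher (4.26%, beside 7.2%) without overlap. The list's median was -0.06. Among its antigen presentation genes, 3 of 11 were lower without overlap (27.3%, beside 7.41% of all genes) and 0 higher. The median of these 11 was -0.19, beside -0.02 in S42L cells. H2-Q7 was at -0.48 ± 0.11, H2-T23 at -0.46 ± 0.11 and H2-K1 at -0.44 ± 0.14, related class I genes, and whether their probes read each other's transcripts was not tested. H2-K1 fell in S42L cells as well, by 0.77 ± 0.14 (adjusted p = 0.0405). Of 15 cholesterol synthesis genes 0 were called, 7 were above 0 and 8 below, with a median of -0.003 and values up to 0.28. Without overlap 3 were lower (20%, beside 7.41% of all genes) and 0 higher. In pathway order the 3 were the isomerase Idi1 (-0.55 ± 0.17), Fdps (-0.12 ± 0.09) and Nsdhl (-0.37 ± 0.14). In S42L cells 2 of the 15 were higher (13.3%, beside 12.4%) and 0 lower without overlap. The pathway's regulator Srebf2 was at -0.05 ± 0.10 in wild-type cells.

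Over all 51 lists, 1473 genes were tested and 1 list, the HIF system, had a called member. The medians of 28 lists were below 0. Among lists of at least 10 tested genes, 2 had a median more than 0.1 log2 from 0, the HIF system and the heat shock chaperones. The median half-width of a gene's unadjusted 95% confidence interval was 0.32 log2 units. The smallest change among the 14 called probes was 0.70 log2 in size and the largest difference of a gene that was not called was 1.11, so at the adjusted threshold much larger differences than 0.32 could go without a call with 3 arrays in each group.

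**Figure D5:**
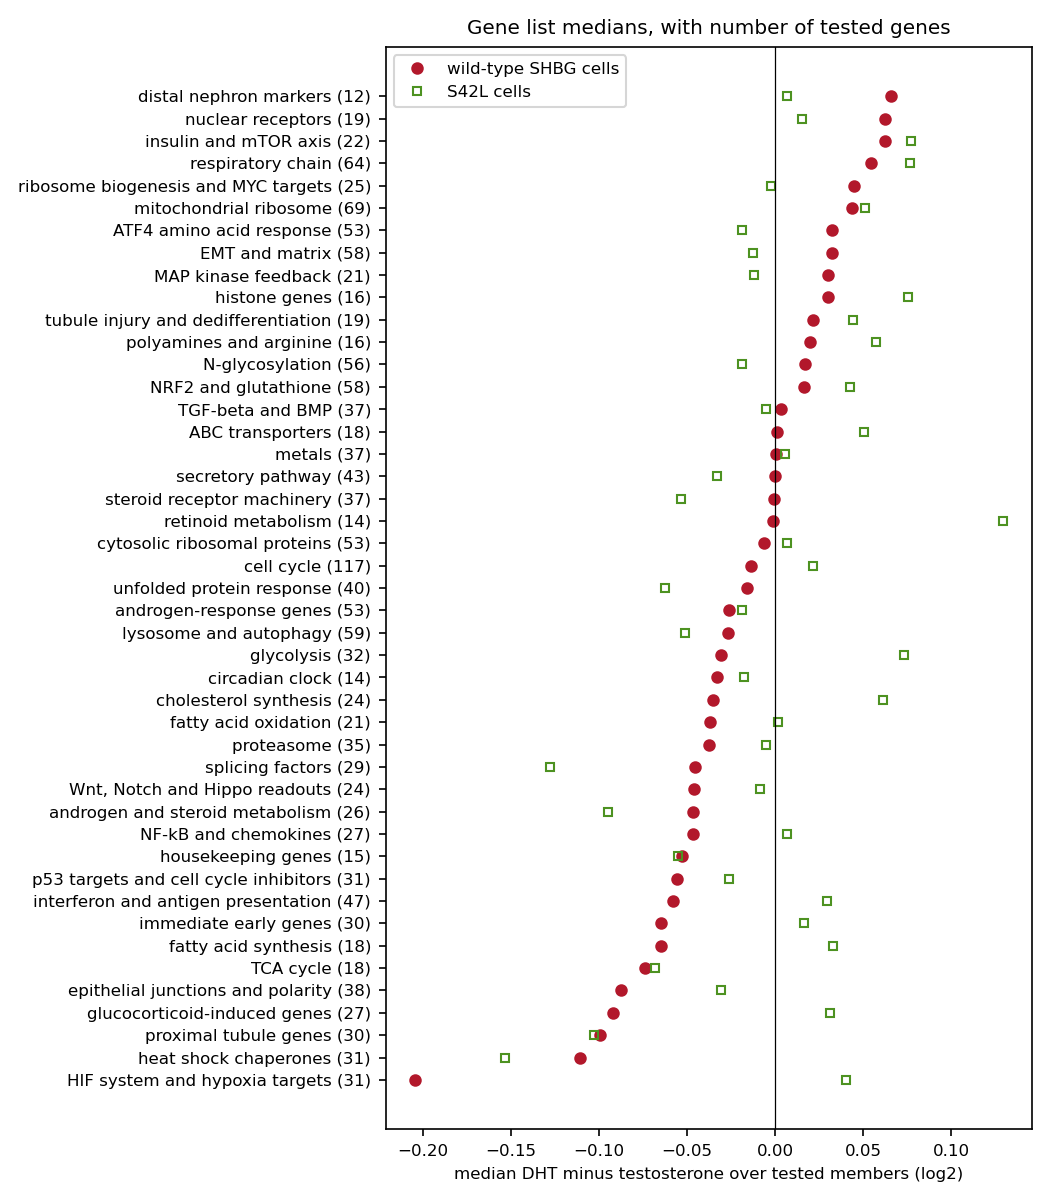
Median DHT minus testosterone difference (x axis, log2) over the tested genes of each list with at least 10 tested genes (number in brackets), in wild-type SHBG cells (filled) and S42L cells (open). The wild-type medians run from -0.20 for the HIF system to 0.07 for distal nephron markers, and the HIF system has an S42L median of 0.04.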

How the data were processed

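Total RNA was labelled with biotin and hybridized to bead arrays, per the labels' protocols. Per the file headers, the deposited values are 1 mean bead intensity and 1 detection p-value per probe and array. The submitters' processing notes name BeadStudio. The authors' processed intensity values were used only as an alternative. From the deposited intensities, neqc of limma 3.58.1 (R 4.3.3) removed background by the detection p-values, added an offset of 16, quantile-normalized the arrays and took log2. Quantile normalization removes a shift shared by most probes.

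One model of 12 arrays, with a mean for each group, was fitted in limma with lmFit and eBayes (8 residual and 4.32 prior degrees of freedom), two-sided, with Benjamini-Hochberg adjustment over 19480 probes. No 2 arrays held identical values. Groups and replicates came from the sample titles, chips from the array names. A gene is read from its tested probe of highest mean signal. Probe names came from the platform annotation (34885 probes with 1 symbol, 18 with several, 10378 with none), and 34807 matched current RefSeq entries. A gene undetected on every array of a group is given as a bound.

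Genes were named if called in wild-type cells or in the difference between the lines, if on a list of 30 given in advance (20 tested, 3 undetected, 7 not analysed here), or as members of an ordered pathway. Further list members, chosen after their values were seen, are those with large differences or without overlap. The 51 lists hold 1994 symbols, of which 1792 were found by symbol, 49 by synonym and 153 are not analysed here. The members and lists were chosen with earlier results of these data known. The number of arrays limits the precision. The fit was tested on simulated data. Alternatives were median scaling, no background correction, the authors' values, no filter, a stricter filter, the 6 wild-type arrays alone, a replicate block, the S42L difference subtracted, averaging of probes and leaving out each array.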

Additional observations from a re-analysis of the deposited data

Results flagged for a closer look

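The DHT minus testosterone difference of Egln3 differed between the lines. Wild-type minus S42L it was -1.63 ± 0.14 log2 (limma interaction test over 12 arrays, adjusted p = 0.00135), with 3 of 3 DHT arrays below every testosterone array in wild-type cells and 3 of 3 above in S42L cells. The value rests on 1 of 3 Egln3 probes. An additive chip effect cancels in it. Each line held the same positions on both chips, 1 to 3 for S42L and 4 to 6 for wild-type cells, so line and position coincide. A chip effect that varied by position would not cancel, and it cannot be told apart from a difference between the lines.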

How the results depend on the processing

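In wild-type cells 14 probes were called. This became 71 with no background correction, 33 with the strict filter, 9 with no filter, 9 with the authors' processed values, 0 on the 6 wild-type arrays only, 1 with the S42L difference subtracted, 49 at an adjusted p under 0.1 (added after seeing the data) and 4 to 14 when 1 array was left out. In S42L cells 52 probes became 193 with median scaling, 354 with no background correction, 29 with no filter, 175 with the strict filter, 257 at an adjusted p under 0.1 and 2 to 196 when 1 array was left out, with 196 without wild-type testosterone replicate 3. The difference between the lines had 1 call, 2 with no background correction or the authors' values, and 1 in each leave-one-out fit. The HIF median stayed within -0.22 to -0.17 in 8 alternatives and within -0.26 to -0.14 without 1 array. Its members lower without overlap numbered 9 with median scaling and 12 to 18 when 1 array was left out. Of 616 alternative medians of the other 44 lists, 547 moved by less than the spread between arrays. With the replicate block the calls were 8 in wild-type and 5 in S42L cells. Same-numbered arrays share only a number, with correlations of deviations of 0.03, 0.00 and 0.10, and 1 of 3 DHT arrays correlated best with its own number.

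Of the 7 called genes, 4 were called with median scaling, 3 with the authors' values and 0 on the wild-type arrays only, and none reversed its direction in these settings. At an adjusted p under 0.05, Egln3 was called in 7 of 8 other settings (limma adjusted p 3.57e-05 to 0.183, lost on the 6 wild-type arrays only) and in 12 of 12 leave-one-out fits. 1 of those 7 settings, with the S42L difference subtracted, is the test of the difference between the lines already given. It is not a further test of the wild-type difference. In the leave-one-out fits Tpt1 was lost in 6, Dok3 in 8, Exosc2 in 10, Ywhae and Retreg3 in 11 and Lpcat2 in 12. The causes were not tested.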
